A study of Mus musculus with 7 samples.

Results

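The cytosolic ribosomal protein genes encode the proteins of the large (*Rpl*) and small (*Rps*) subunits of the ribosome outside mitochondria. They were chosen by symbol in the annotation used for counting, as protein-coding genes named *Rpl* or *Rps* with a number and an optional letter, *Rplp0* to *Rplp2* and *Rpsa*, without the kinase genes *Rps6k* and without pseudogenes. The rule matched 81 genes, and 79 of them reached 5 counts in 4 or more of the 7 libraries, 47 of the large and 32 of the small subunit. These 79 were among 17343 genes that passed the same filter, of 37310 in the file. The other two were *Rpl10l*, a testis paralog of *Rpl10*, with 0 counts in all 7 libraries, and *Rpl3l*, a striated muscle paralog of *Rpl3*, with 8, 4 and 1 counts in WT libraries and 10, 9, 4 and 2 counts in the others.

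RNA-seq of C57BL/6 mammary glands at lactation day 1 (L1) compared 3 WT mice, which carried Tardbp wt/wt and the WAP-Cre transgene, with 4 Tardbp KO mice, which carried Tardbp fl/fl and WAP-Cre. TDP-43, the product of *Tardbp*, is an RNA-binding protein, and the study asked which genes differ when it is lost from milk-secreting cells. Cre is driven by the *Wap* promoter in luminal epithelial cells from mid-pregnancy to lactation, so the other cells of the gland keep *Tardbp*. It removes exons 2 and 3 of the gene. In whole glands, fewer cells of a type and less RNA per cell cannot be told apart.

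Each ribosome holds 1 copy of almost every ribosomal protein, and the stalk proteins P1 and P2 are the main exception. The proteins are made in the cytosol and built into subunits in the nucleolus with ribosomal RNA. In the lactating gland, ribosomes carry the synthesis of the caseins and whey proteins. Many mRNAs of ribosomal proteins begin with a C followed by a run of pyrimidines, the 5′ terminal oligopyrimidine (TOP) tract, through which mTORC1 and LARP1 control how they are translated. RNA-seq counts show mRNA levels and not translation.

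Libraries held 36007737 to 42811337 counts. The 7 milk protein genes took 34, 26.3 and 26.4% of the counts in WT replicates 1 to 3 and 21.8, 14.8, 12.7 and 19.3% in the libraries labelled KO, replicates 1 to 4. Scaling was by TMM, with factors of 0.792 to 0.912 in WT libraries and 0.997 to 1.22 in the others, and levels are in CPM after this scaling. Only lane 4 held both genotypes (WT replicate 2, KO replicates 3 and 4). *Tardbp* (chromosome 4, 147986491-148001128, minus strand, NCBIM37) stood at 208, 166 and 148 CPM in WT libraries and at 200, 165, 144 and 194 CPM in those labelled KO. Its fitted value was 0.01 on the log2 scale (standard error 0.178, edgeR adjusted p = 0.976), or -0.02 with the 10 most counted genes left out. The deleted exons are 416 of the 7477 bases of its main transcript (5.56%), so the gene's total count could not check the labels. KO libraries are therefore those so labelled. The milk protein genes of luminal cells were abundant in every library, with *Csn2* at 28968 CPM or more. The 10 lymphocyte markers summed to 36.5 to 52.5 CPM in WT libraries and to 387, 67.1, 523 and 117 CPM in KO replicates 1 to 4. *Cd79a*, a B-cell marker, was 0.596 to 0.778 CPM in WT libraries and 51.3, 1.83, 68.4 and 15.9 CPM in KO replicates 1 to 4.

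To show the TOP tract, the bases from 10 before to 20 after the RefSeq start of transcription are given in build GRCm38.p6, with the tract in capitals where a C at the start was followed by at least 4 pyrimidines (C or T, sense strand only). The start of the transcript is base 11 of each sequence. The first 6 are members with a tract that are described below by function or level. The last 2 are the members with the lowest log2 fold changes among those of 10 CPM or more. They had no tract beginning at the annotated start, and later bases of the window were not searched.

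*Rpl38* (chr11:114668570-114668599, plus strand): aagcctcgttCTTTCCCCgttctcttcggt
*Rplp2* (chr7:141447641-141447670, plus strand): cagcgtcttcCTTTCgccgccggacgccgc
*Rps6* (chr4:86857348-86857377, minus strand): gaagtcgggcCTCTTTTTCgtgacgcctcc
*Rps15a* (chr7:118116128-118116157, minus strand): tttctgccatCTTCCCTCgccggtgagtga
*Rps18* (chr17:33955646-33955675, minus strand): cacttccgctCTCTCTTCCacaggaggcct
*Rps27* (chr3:90213629-90213658, minus strand): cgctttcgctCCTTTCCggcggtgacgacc
*Rpl36al* (chr12:69184048-69184077, minus strand): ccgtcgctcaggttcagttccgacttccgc
*Rps27l* (chr9:66946076-66946105, plus strand): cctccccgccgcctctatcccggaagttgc

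Such a tract stood at the annotated start of 13 of the 58 members found in the RefSeq table (22.4%) and of 813 of all 27025 genes in it (3.01%). A tract a few bases from the annotated start would have been missed, since no other position was searched. The 13 members with a tract had log2 fold changes from -0.56 to -0.07 with a median of -0.23, and the 45 without one from -0.98 to 0.10 with a median of -0.21. All these sequences are RefSeq's, and the counts were made on the older build NCBIM37.

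The first measure was the part of each library taken by the 79 genes. They took 3.78, 4.55 and 4.55% of all counts in WT replicates 1 to 3 (4.29% ± 0.439, SD, n = 3) and 4.91, 4.67, 4.64 and 5.06% in KO replicates 1 to 4 (4.82% ± 0.199, SD, n = 4). Every library labelled KO was above every WT library on this measure. The 95% Wilson intervals of these shares and of the milk protein shares were at most 0.0309 percentage points wide, and cover counting error only. When the milk protein genes were left out of the total, the shares were 5.73, 6.17 and 6.17% in WT libraries and 6.28, 5.48, 5.32 and 6.27% in those labelled KO. The groups then overlapped, with means of 6.02% ± 0.253 (SD, n = 3) and 5.84% ± 0.507 (SD, n = 4). The order of the genotypes thus turned with the total against which the genes were set. No test was made on these shares, which are sums over the chosen genes.

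**Figure D1:**
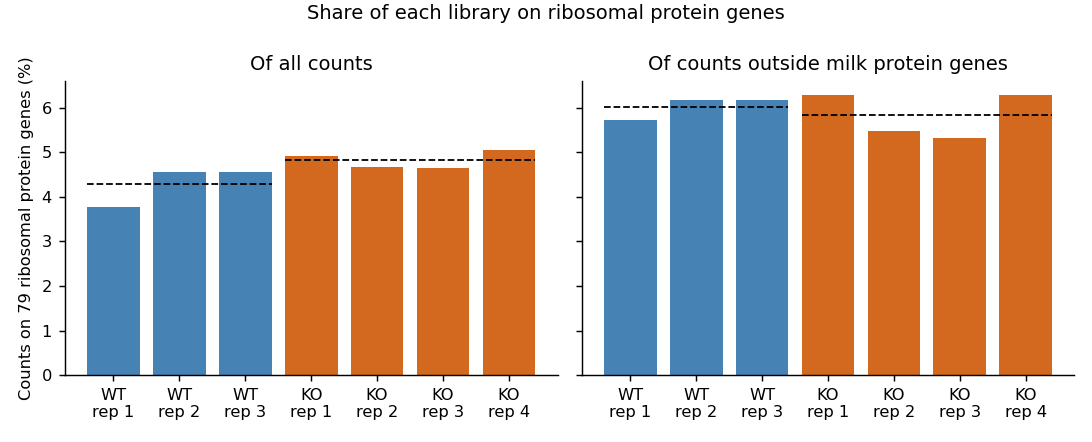
Percent of counts on the 79 ribosomal protein genes in each library, of all counts (left) and of counts outside the 7 milk protein genes (right); bars are single libraries and dashed lines are means by genotype. Of all counts the 4 libraries labelled KO lie at 4.64 to 5.06%, above the WT libraries, and outside milk protein genes they lie at 5.32 to 6.28%, around the WT values of 5.73 to 6.17%.

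After TMM scaling, the ribosomal protein mRNAs were lower in 3 of the 4 libraries labelled KO and near the WT level in the fourth, whereas with scaling to library size only the median member was higher in KO. The log2 level of each member was set against its own WT mean. The median over members was -0.03, 0.01 and 0.03 in WT replicates 1 to 3 and -0.17, -0.29, -0.39 and 0.03 in KO replicates 1 to 4. In KO replicate 3, 75 of the 79 members lay below all 3 WT libraries. The same held for 68 members in KO replicate 2, for 51 in KO replicate 1 and for 14 in KO replicate 4, in which 23 members lay above all WT libraries. KO replicate 3 was the lowest of the 7 libraries for 59 members. Both subunits gave the same order, with medians of -0.19, -0.28, -0.41 and 0.03 for the large and -0.15, -0.32, -0.38 and 0.01 for the small subunit in KO replicates 1 to 4. Summed over members, WT libraries held 49205 ± 1241 CPM (SD, n = 3), and the sums were 44784, 40981, 38096 and 50781 CPM in KO replicates 1 to 4. The TMM factors of the latter were 1.1, 1.14, 1.22 and 0.997, so the library with the smallest factor had the highest members. The milk protein and lymphocyte values given above differed among the same libraries, and their part in these levels was not tested.

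**Figure D2:**
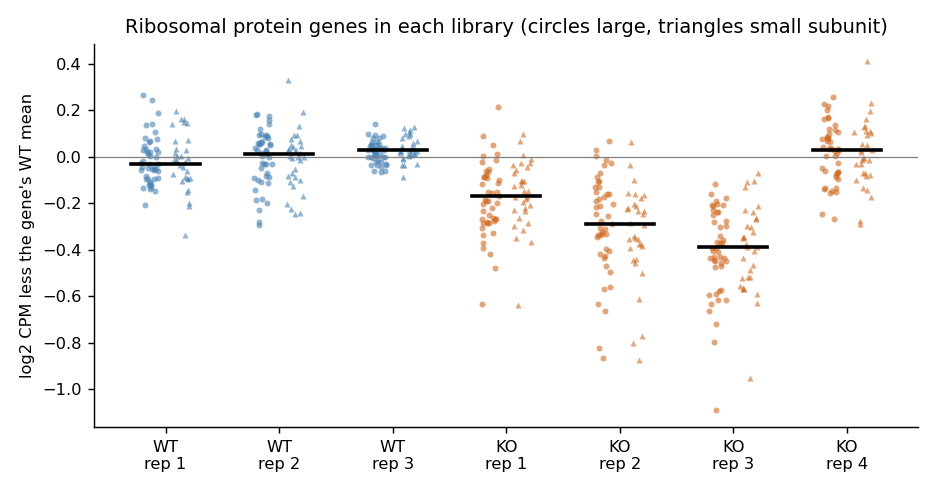
Log2 CPM of each ribosomal protein gene less its mean in the 3 WT libraries, by library, with circles for the large and triangles for the small subunit and a bar at the median over the 79 members (*Rpl39l*, under 1 CPM, has no point). Medians lie at -0.17, -0.29 and -0.39 in KO replicates 1 to 3 and at 0.03 in KO replicate 4; with library size only as the scale, the median log2 fold change of the members is 0.14 instead of -0.20.

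Genotypes were compared gene by gene in an edgeR quasi-likelihood fit, with p-values adjusted by Benjamini-Hochberg over all 17343 genes. Of the 79 members, 74 had a negative log2 fold change (KO against WT) and 5 a positive one, with a median of -0.20, while the median of all genes tested was 0.05. With library size only, the median of all genes moved to 0.40 and that of the members to 0.14, and 14 members were negative and 65 positive. Relative to the median of all genes, 78 of the 79 members were lower under both scalings. A change of scaling shifts all genes by nearly the same amount, so this count could hardly differ between the scalings. In this fit no member passed the study's limits (more than 2-fold in either direction at an adjusted p under 0.01), and neither did any other gene (0%). The study reported differentially expressed genes at these limits with another version of edgeR, after removing ribosomal and mitochondrial genes. The 0% therefore belongs to the test and gene filter used here. At an adjusted p under 0.05 no member passed either, against 1 of all genes tested (0.00577%). The members' adjusted p ran from 0.113 to 0.991. At an unadjusted p under 0.05, 9 members (11.4%) were lower and 0 were higher in KO, against 10.5% lower and 10.8% higher of all genes tested, so that the share of lower members was near the background.

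Other tests on the same counts called at most 2 members at an adjusted p under 0.05. edgeR's exact test called 1 member lower and 0 higher, against 4.19% lower and 3.7% higher of all genes. edgeR's likelihood ratio test also called 1 lower and 0 higher, against 4.26% and 4.07%. DESeq2 called 2 lower and 0 higher, against 5.65% and 5.44%. The member called by all of these was *Rps27l*, and DESeq2 added *Rpl36al*.

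Standard errors of the members other than *Rpl39l* were 0.122 to 0.229 on the log2 scale. For 75 of the 79 members the 95% interval of the log2 fold change lay within -1 and 1, so a change of over 2-fold lay outside it, and for 9 it lay below 0. In 14 members (17.7%) every library labelled KO was below every WT library, against 9.55% of all genes tested. No member showed the opposite, against 9.07% of all genes. Among the 14 were *Rpl11*, *Rpl23a*, *Rpl26*, *Rpl34*, *Rpl35a*, *Rpl36*, *Rpl36a*, *Rpl39*, *Rps18*, *Rps25*, *Rps27*, *Rps27a* and *Rps27l*, named after their values were seen. Without KO replicate 4 the count was 56 (70.9%), against 15.6% of all genes tested without that library. Without WT replicate 2 it was 31 (39.2%), against 17.6% of all genes. With library size only, 0 members were lower without overlap (2.62% of all genes) and 23 (29.1%) were higher (24.9% of all genes). Within lane 4, the median log2 fold change of the members was -0.17 and that of all genes 0.01, with no test for 1 WT library.

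**Figure D3:**
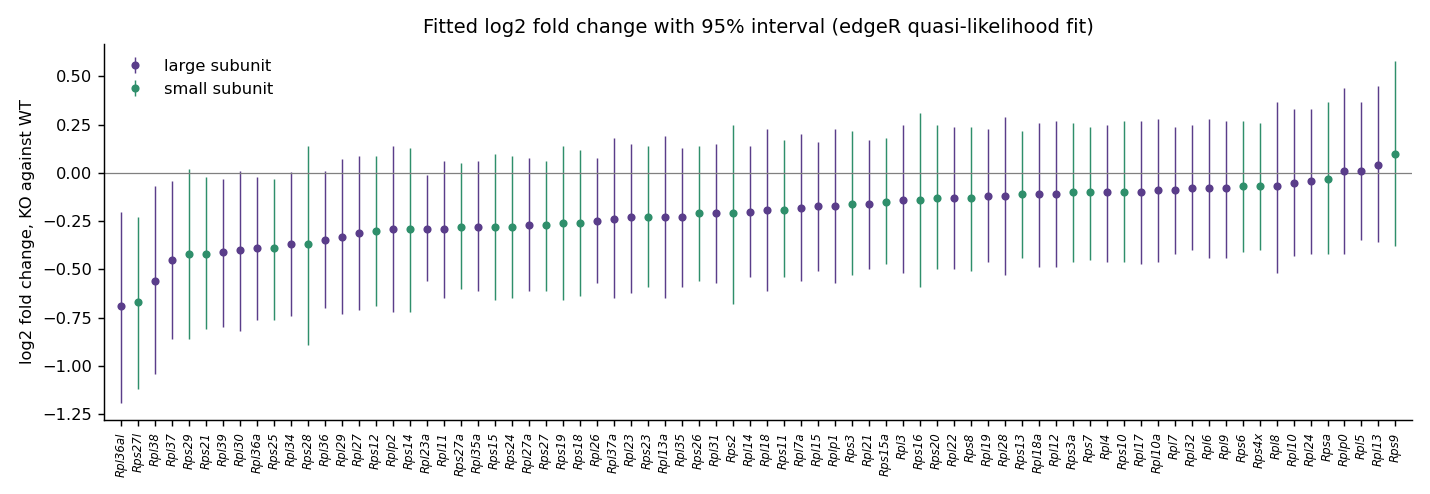
Fitted log2 fold change (KO against WT, TMM scaling) of 76 ribosomal protein genes in rising order, with the 95% interval of the edgeR quasi-likelihood fit; purple is the large and green the small subunit, and *Rpl39l* (-0.98, under 1 CPM) is among those left out. Values run from -0.69 for *Rpl36al* to 0.10 for *Rps9*, and 9 of the intervals lie below 0; with library size only as the scale, 65 of the 79 members are above 0.

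The lowest log2 fold changes among members of 10 CPM or more belonged to *Rpl36al*, *Rps27l*, *Rpl38*, *Rpl37* and *Rps29*, which all encode small proteins. *Rpl36al* is a paralog of *Rpl36a* and lies on chromosome 12 (70283718-70285070, minus strand, NCBIM37). It stood at 317, 215 and 270 CPM in WT replicates 1 to 3 and at 170, 149, 124 and 219 CPM in KO replicates 1 to 4. KO replicate 4 was just above WT replicate 2, and the other libraries labelled KO were below all WT libraries. The fitted log2 fold change was -0.69 (standard error 0.219, edgeR adjusted p = 0.132, range over the alternatives 0.0477 to 0.412, 2-sided exact permutation p = 0.0857).

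*Rps27l*, a paralog of *Rps27* that p53 induces, lies on chromosome 9 (66793893-66797323, plus strand, NCBIM37). Its levels were 193, 142 and 174 CPM in WT libraries and 108, 91.7, 87 and 139 CPM in libraries labelled KO. The groups did not overlap, although WT replicate 2 and KO replicate 4 were close. The log2 fold change was -0.67 (standard error 0.195, edgeR adjusted p = 0.113, range over the alternatives 0.0326 to 0.364), and the exact permutation p was 0.0571, where the smallest that 3 against 4 libraries allow is 0.0286.

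*Rpl38*, a large subunit protein known for its part in translation of Hox mRNAs, lies on chromosome 11 (114529838-114533645, plus strand, NCBIM37). It was at 272, 189 and 236 CPM in WT libraries and at 165, 126, 132 and 209 CPM in those labelled KO, with KO replicate 4 between the WT values. This gave a log2 fold change of -0.56 (standard error 0.213, edgeR adjusted p = 0.183, exact permutation p = 0.0857). *Rpl37*, a zinc-binding protein of the large subunit on chromosome 15 (5066613-5069140, plus strand), was at 462, 358 and 447 CPM in WT and at 320, 283, 255 and 377 CPM in KO libraries. Again only KO replicate 4 exceeded a WT library. The log2 fold change was -0.45 (standard error 0.182, edgeR adjusted p = 0.199, exact permutation p = 0.0857). *Rps29*, a zinc-binding protein of the small subunit on chromosome 12 (70258709-70260173, minus strand), was at 361, 279 and 345 CPM in WT and at 285, 187, 222 and 289 CPM in KO libraries, so that 2 libraries labelled KO lay above WT replicate 2. The fit gave it a log2 fold change of -0.42 (standard error 0.195, edgeR adjusted p = 0.256, exact permutation p = 0.171). These 5 kept their sign with library size only.

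The highest log2 fold changes were near 0. *Rps9*, a protein of the small subunit that binds early in its assembly, lies on chromosome 7 (3655595-3658503, plus strand). It was at 742, 1180 and 942 CPM in WT libraries and at 983, 980, 893 and 1246 CPM in those labelled KO. The groups overlapped widely, and the log2 fold change was 0.10 (standard error 0.212, edgeR adjusted p = 0.821, exact permutation p = 0.543), with -0.14 in lane 4 alone. *Rpl13* was at 744, 841 and 805 CPM in WT and at 924, 712, 698 and 952 CPM in KO libraries, a log2 fold change of 0.04 (standard error 0.181, edgeR adjusted p = 0.915, exact permutation p = 0.857). Its KO libraries lay on both sides of the WT libraries.

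*Rpl5*, which carries the 5S ribosomal RNA into the large subunit, was at 554, 677 and 571 CPM in WT and at 572, 626, 551 and 674 CPM in KO libraries. Its log2 fold change was 0.01 (standard error 0.16, edgeR adjusted p = 0.98, exact permutation p = 0.943), and 26.7% of its exon bases were shared with other genes. Its sign turned with DESeq2's size factors (-0.003), and its 95% interval was -0.35 to 0.37.

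**Figure D4:**
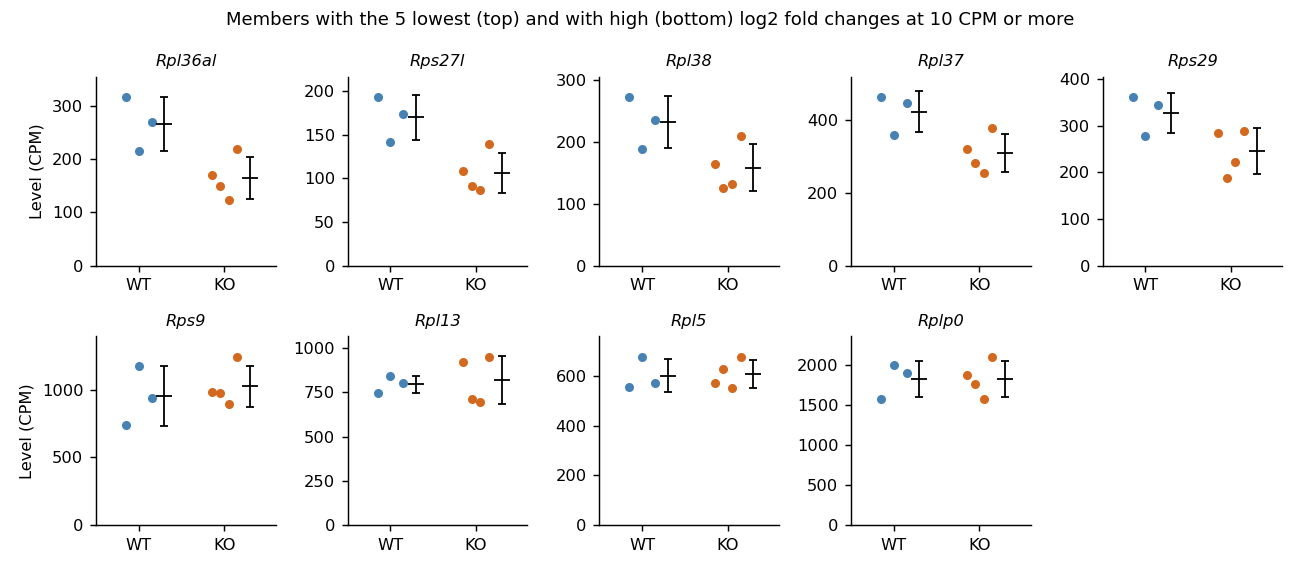
Level in CPM of the 5 members with the lowest (top row) and 4 of those with the highest (bottom row) log2 fold change, one point per library, with the mean and SD by genotype beside the points and all axes starting at 0. In the top row KO replicate 4 reaches 139 to 377 CPM and lies close to the lowest WT library, and in the bottom row, whose signs turn with lane 4 alone, the genotypes overlap.

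The stalk of the large subunit, which recruits elongation factors, is built from *Rplp0* at its base and the proteins of *Rplp1* and *Rplp2*. *Rplp0*, a common reference gene, was at 1573, 2004 and 1900 CPM in WT and at 1883, 1769, 1573 and 2110 CPM in KO libraries, and had the highest CPM of all members in both genotypes. Its log2 fold change was 0.01 (standard error 0.189, edgeR adjusted p = 0.991, exact permutation p = 0.971), and -0.01 with DESeq2's size factors. *Rplp1* was at 1027, 1037 and 1018 CPM in WT and at 1028, 820, 762 and 1045 CPM in KO libraries, where replicates 2 and 3 stood apart from the rest. Its log2 fold change was -0.17 (standard error 0.177, edgeR adjusted p = 0.629, exact permutation p = 0.4) and 0.17 with library size only. *Rplp2* was at 544, 497 and 572 CPM in WT and at 441, 387, 359 and 567 CPM in KO libraries, a log2 fold change of -0.29 (standard error 0.189, edgeR adjusted p = 0.412, exact permutation p = 0.143) and 0.04 with library size only. The 3 parts of the stalk thus had values from -0.29 to 0.01, and no difference among them was tested.

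*Rps18*, for which the study lists qRT-PCR primers, was at 684, 684 and 703 CPM in WT libraries and at 609, 542, 482 and 676 CPM in those labelled KO. Every KO library was below every WT library, and the spread was wider in KO (577 ± 83.6 CPM, SD, n = 4) than in WT (690 ± 11.1 CPM, SD, n = 3). The log2 fold change was -0.26 (standard error 0.166, edgeR adjusted p = 0.412, exact permutation p = 0.0571, 95% interval -0.64 to 0.12), and 0.08 with library size only. *Rps6*, the substrate of the S6 kinases, was at 529, 558 and 541 CPM in WT and at 533, 485, 468 and 586 CPM in KO libraries, a log2 fold change of -0.07 (standard error 0.151, edgeR adjusted p = 0.838, exact permutation p = 0.429), which turned to 0.28 with library size only.

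*Rpsa*, also known as the laminin receptor, was at 887, 1117 and 1067 CPM in WT and at 1090, 875, 948 and 1112 CPM in KO libraries. The genotypes overlapped, at a log2 fold change of -0.03 (standard error 0.176, edgeR adjusted p = 0.954, exact permutation p = 0.857) and 0.31 with library size only. *Rpl13a*, which also acts in translational silencing by the GAIT complex, was at 1430, 1596 and 1571 CPM in WT and at 1412, 1139, 1133 and 1547 CPM in KO libraries. The log2 fold change was -0.23 (standard error 0.185, edgeR adjusted p = 0.524, exact permutation p = 0.143) and 0.11 with library size only, and 41.3% of its exon bases were shared with *Flt3l* and snoRNA genes.

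Several ribosomal proteins have a paralog, and the ratio of both levels within a library does not depend on the scaling. The log2 ratio of *Rps27l* to *Rps27* was -1.60, -1.86 and -1.71 in WT and -2.13, -2.24, -2.30 and -1.86 in KO libraries. KO replicate 4 was level with WT replicate 2, and the other libraries labelled KO were below all WT libraries. *Rps27* itself was at 584, 516 and 571 CPM in WT and at 475, 435, 428 and 503 CPM in KO libraries, without overlap. Its log2 fold change was -0.27 (standard error 0.147, edgeR adjusted p = 0.322, exact permutation p = 0.0571) and 0.08 with library size only.

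*Rpl36a* was at 304, 284 and 283 CPM in WT and at 241, 187, 195 and 264 CPM in KO libraries, also without overlap, and its fold change on the log2 scale was -0.39 (standard error 0.164, edgeR adjusted p = 0.215, exact permutation p = 0.0571). The log2 ratio of *Rpl36al* to *Rpl36a* was 0.06, -0.40 and -0.07 in WT and -0.50, -0.33, -0.66 and -0.27 in KO libraries, and the groups overlapped. *Rpl39*, a very small protein that lines the exit tunnel of the large subunit, was at 346, 304 and 337 CPM in WT and at 270, 207, 214 and 296 CPM in KO libraries. All 4 KO libraries were lower, and its log2 fold change was -0.41 (standard error 0.171, edgeR adjusted p = 0.207, exact permutation p = 0.0571). Its paralog *Rpl39l*, best known from male germ cells, had only 22, 10 and 16 counts in WT and 12, 8, 12 and 12 counts in KO libraries. Its log2 fold change of -0.98 had a standard error of 0.478 and a 95% interval from -2.06 to 0.10 (edgeR adjusted p = 0.278, exact permutation p = 0.0857).

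*Rpl7l1* and *Rpl22l1*, paralogs of *Rpl7* and *Rpl22* whose symbols fall outside the rule, had lower values than their partners. *Rpl7l1* was at 87.4, 54.9 and 77.6 CPM in WT and at 55.9, 53.1, 51.7 and 56 CPM in KO libraries, a log2 fold change of -0.44 (standard error 0.166, edgeR adjusted p = 0.181, range over the alternatives 0.0418 to 0.766). WT replicate 2 lay among the KO libraries, and without it the log2 fold change was -0.61. *Rpl7*, an rRNA-binding protein of the large subunit, was at 609, 656 and 618 CPM in WT and at 546, 616, 562 and 629 CPM in KO libraries. For it the log2 fold change was -0.09 (standard error 0.146, edgeR adjusted p = 0.756, exact permutation p = 0.257) and 0.25 with library size only. *Rpl22l1* was at 160, 115 and 108 CPM in WT and at 126, 71.4, 78.8 and 113 CPM in KO libraries, a log2 fold change of -0.39 (standard error 0.236, edgeR adjusted p = 0.378). *Rpl22* was at 225, 283 and 244 CPM in WT and at 193, 250, 213 and 261 CPM in KO libraries, with -0.13 (standard error 0.164, edgeR adjusted p = 0.696, exact permutation p = 0.4) and 0.21 with library size only. The groups of all these genes overlapped.

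For 3 further members the paralog was not measured above the filter or is not annotated. *Rpl3*, near the peptidyl transferase centre, was at 910, 993 and 890 CPM in WT and at 916, 803, 719 and 952 CPM in KO libraries, a log2 fold change of -0.14 (standard error 0.168, edgeR adjusted p = 0.687, exact permutation p = 0.286). *Rpl10*, which joins the large subunit late in its assembly, was at 954, 1187 and 1023 CPM in WT and at 981, 1039, 913 and 1138 CPM in KO libraries, with -0.05 (standard error 0.169, edgeR adjusted p = 0.893, exact permutation p = 0.657). *Rps4x*, an X-linked gene of the small subunit, was at 714, 727 and 694 CPM in WT and at 716, 635, 659 and 705 CPM in KO libraries, with -0.07 (standard error 0.145, edgeR adjusted p = 0.827, exact permutation p = 0.314). All 3 were positive with library size only (0.21, 0.29 and 0.28).

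Among the members, log2 fold changes were ordered by coding length, a relation noticed in these data and given without a test. Coding lengths ran from 153 bases in *Rpl39* and *Rpl39l* to 1257 bases in *Rpl4*. In the 27 members under 400 coding bases all log2 fold changes were negative, from -0.98 to -0.13, with a median of -0.35. The 30 members of 400 to under 600 bases had a median of -0.19, and the 22 members of 600 bases or more had one of -0.09. With library size only the 3 medians were -0.0021, 0.15 and 0.25. Across the 79 genes, which share the same libraries and are not independent, Spearman's rho between coding length and log2 fold change was 0.75 and Pearson's r with log2 coding length was 0.73. The same rho was found with library size only, and it was between 0.71 and 0.76 with each library left out in turn. In lane 4 alone (1 WT and 2 KO libraries) it was 0.17. Transcript length gave a rho of 0.46, and GC content one of -0.02.

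The difference between the medians of the short and the long members lies within a library, so scaling does not enter it. It was 0.14, -0.17 and 0.02 on the log2 scale in WT replicates 1 to 3 and -0.19, -0.30, -0.32 and -0.18 in KO replicates 1 to 4. All libraries labelled KO were negative, and WT replicate 2 came within 0.01 of KO replicate 4. Other coding genes with a mean of 100 CPM or more had medians of -0.21 under 400 bases (78 genes), -0.11 from 400 to under 600 bases (128 genes) and -0.05 from 600 to under 10000 bases (1201 genes). The same difference between medians was 0.03, -0.06 and 0.04 for these genes in WT replicates 1 to 3. In KO replicates 1 to 4 it was -0.25, -0.29, -0.25 and 0.12. Over all 1424 such genes Spearman's rho was 0.10, but their lengths were not matched to those of the members. When each library's trend with transcript length over all coding genes was removed, an alternative chosen after seeing the data, the medians of the short, middle and long members were -0.24, -0.12 and -0.04 and rho was 0.64. Spearman's rho between the log2 fold change and the mean log2 level of the members was 0.58, so level and length were not separated.

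**Figure D5:**
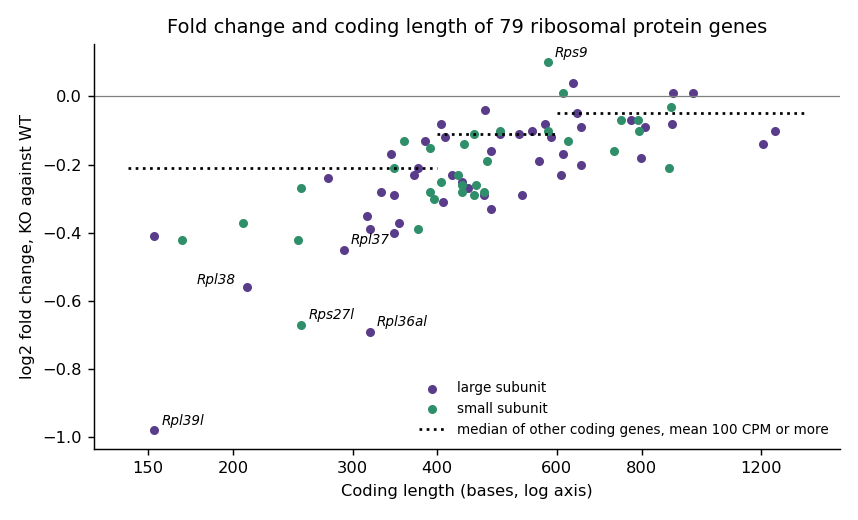
Log2 fold change (KO against WT, TMM scaling) of each of the 79 ribosomal protein genes against its coding length in bases on a log axis, with purple for the large and green for the small subunit, and dotted lines at the median of other coding genes of 100 CPM or more in the same length range. Members under 400 bases have a median of -0.35 and those of 600 bases or more -0.09 (-0.0021 and 0.25 with library size only), and the dotted lines lie at -0.21 and -0.05.

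Levels were compared between members per kilobase of exon. The WT level ran from 0.598 CPM per kb (*Rpl39l*) to 2076 CPM per kb, with a median of 398 CPM per kb. *Rplp1* was highest with 2076 ± 18.9 CPM per kb (SD, n = 3) in WT and 1846 ± 290 (SD, n = 4) in KO libraries. *Rps27* followed with 1614 ± 104 and 1334 ± 102 CPM per kb, and *Rps12* with 1310 ± 69.8 and 1063 ± 170 CPM per kb. This order rests on the length used, since the exons of all annotated isoforms are joined. Per kb of the transcript used for coding length, a length chosen after seeing the data, *Rplp1* stayed first, *Rps14* followed in WT libraries with 1845 CPM per kb, ahead of *Rps27*, and *Rps12* had rank 10. *Rps12*, a small subunit protein, was at 709, 638 and 684 CPM in WT and at 610, 478, 471 and 640 CPM in KO libraries, a log2 fold change of -0.30 (standard error 0.173, edgeR adjusted p = 0.357, exact permutation p = 0.143) and 0.04 with library size only.

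After *Rpl39l*, the lowest levels per kb belonged to *Rps15a* with 51.3 ± 2.13 in WT and 46.3 ± 4.67 in KO libraries and to *Rpl24* with 69.7 ± 5.52 and 67.6 ± 9.99 CPM per kb. *Rps15a* was at 328, 306 and 329 CPM in WT and at 311, 270, 260 and 318 CPM in KO libraries, a log2 fold change of -0.15 (standard error 0.144, edgeR adjusted p = 0.599, exact permutation p = 0.171). *Rpl24*, a protein at the interface of the subunits, was at 382, 436 and 443 CPM in WT and at 376, 428, 345 and 482 CPM in KO libraries, with -0.04 (standard error 0.167, edgeR adjusted p = 0.908, exact permutation p = 0.686). Both were positive with library size only (0.20 and 0.29). Their exons sum to 6262 and 6029 bases in the file because all annotated isoforms are joined, while the transcripts used here for coding length have 3721 and 677 bases. Per kb of these transcripts *Rps15a* was second lowest in WT libraries with 86.3 CPM per kb, whereas *Rpl24*, with 621 CPM per kb, was near the median of 730 CPM per kb.

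Levels of these genes carry a further limit, since ribosomal protein genes have many processed pseudogenes and reads that map to several places were not counted. In the median member 61.4% of the 50-base windows of the transcript had a second exact copy in the genome, and 46.8% of the 100-base windows. The share of 50-base windows was 99.7% in *Rps27*, 94.7% in *Rps6*, 81.1% in *Rps18* and 0% in *Rpl39l*. It was over 50% in 48 members. It was 26.7% in *Rps27l* and 70% in *Rpl36al*. Across members, this share had a Spearman's rho of 0.05 with the log2 fold change and of 0.34 with the level per kb of transcript. Exon bases shared with another annotated gene, over which reads were not counted either, were found in 26 members and exceeded 20% of the exon bases in 6. The highest share was 66.2%, in *Rpl35*, and *Rpl23a* had 62.3%.

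Ribosomal protein genes often host small nucleolar RNAs (snoRNAs), which guide the modification of ribosomal RNA, in their introns. A snoRNA gene lay within the span and on the strand of 30 of the 79 members (38%), against 219 of 15025 other coding genes tested (1.46%). The hosts had a median log2 fold change of -0.14 and the other members of -0.24 (with TMM scaling). TDP-43 binds UG-rich RNA. Runs of at least 3 UG in the transcript were present in 25 of the 79 members (31.6%), against 60.5% of the other coding genes whose transcripts fall in the members' length range. No member held a run of 6 UG or more in its transcript, against 3.12% of those genes. With introns, such a run lay in 5 members (6.33%) and in 58.4% of those genes. The 25 members with a run of 3 or more had a median log2 fold change of -0.17 and the others of -0.22. Transcript lengths were not matched within the range of 345 to 3721 bases, in which the members' median was 774 bases. Introns of ribosomal protein genes are short, and the length of the introns was not matched either.

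Genes that belong to the ribosome but not to the symbol rule had log2 fold changes near 0. *Fau*, which encodes the small subunit protein eS30 fused to a ubiquitin-like domain, was at 475, 657 and 578 CPM in WT and at 533, 563, 529 and 733 CPM in KO libraries, a log2 fold change of 0.05 (standard error 0.19, edgeR adjusted p = 0.912) and -0.06 in lane 4 alone. *Gnb2l1*, the gene of RACK1 on the small subunit, had 0.02 (standard error 0.173, edgeR adjusted p = 0.967). Neither passed an adjusted p of 0.05, and the groups of both overlapped.

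Of 16 other mRNAs known to begin with a TOP tract, such as those of elongation factors, 6 had a negative and 10 a positive log2 fold change, with a median of 0.10. *Pabpc1*, the poly(A)-binding protein, was at 624, 871 and 660 CPM in WT and at 1027, 1123, 829 and 1041 CPM in KO libraries, a log2 fold change of 0.48 (standard error 0.193, edgeR adjusted p = 0.195). KO replicate 3 was below WT replicate 2. *Nap1l1*, a nucleosome assembly protein, was at 73.4, 94.5 and 76.2 CPM in WT and at 125, 95.6, 104 and 106 CPM in KO libraries, with 0.40 (standard error 0.154, edgeR adjusted p = 0.183). Its groups did not overlap.

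Initiation factors and ribosome biogenesis genes had lower medians than the ribosomal protein genes, and none of them passed an adjusted p of 0.05 in the quasi-likelihood test. Of 31 translation initiation factors, 27 were negative, with a median of -0.40, and 13 were lower without overlap (9.55% of all genes). The exact test of edgeR called 4 of them lower (4.19% of all genes) and DESeq2 5 (5.65%). *Eif2b4*, a subunit of the exchange factor of eIF2, was at 98.4, 69.9 and 82.1 CPM in WT and at 42.1, 41.7, 39.9 and 64.6 CPM in KO libraries, a log2 fold change of -0.83 (standard error 0.204, edgeR adjusted p = 0.0879, range over the alternatives 0.0108 to 0.328). *Eif4g3*, a scaffold of the cap-binding complex, had -0.78 (standard error 0.174, edgeR adjusted p = 0.0796, range over the alternatives 0.00329 to 0.303). Of 31 ribosome biogenesis genes, 29 were negative, with a median of -0.44, and 8 were lower without overlap. The exact test called 2 of these and DESeq2 5, all lower. *Nolc1*, a nucleolar phosphoprotein, was at 93.5, 34.4 and 64.7 CPM in WT and at 42.7, 25.6, 24.8 and 26 CPM in KO libraries, a log2 fold change of -1.11 (standard error 0.325, edgeR adjusted p = 0.116, range over the alternatives 0.0222 to 0.401). WT replicate 1 was the highest and WT replicate 2 lay below KO replicate 1. *Bysl*, which acts in small subunit assembly, had -0.87 (standard error 0.313, edgeR adjusted p = 0.163).

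Of 13 measured genes of RNA polymerase I, which makes the ribosomal RNA precursor, 10 were negative, with a median of -0.14. The exact test called 1 of them lower (4.19% of all genes) and DESeq2 1 (5.65%). *Polr1b* had -0.71 (standard error 0.212, edgeR adjusted p = 0.12, range over the alternatives 0.039 to 0.4) and *Polr1a*, the largest subunit, -0.69 (standard error 0.235, edgeR adjusted p = 0.147). Of 14 regulators of the translation of TOP mRNAs, 9 were negative and 5 positive, with a median of -0.15. Among them 2 were called lower by edgeR's exact test (4.19% of all genes) and 3 by DESeq2 (5.65%). *Larp4* had -0.77 (standard error 0.244, edgeR adjusted p = 0.133, range over the alternatives 0.0322 to 0.427), and *Rheb*, the activator of mTORC1, had -0.74 (standard error 0.219, edgeR adjusted p = 0.119, range over the alternatives 0.0227 to 0.393). *Larp1*, chosen for its role after its value was seen, had -0.37 (standard error 0.211, edgeR adjusted p = 0.355). With library size only, the medians of initiation factors, biogenesis genes and other TOP mRNAs were -0.05, -0.09 and 0.43.

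The proteins of the mitochondrial ribosome are made from separate nuclear genes, and 76 of them were measured. Of these, 67 were negative and 9 positive, with a median of -0.28 (0.06 with library size only). Without overlap 13 were lower, against 9.55% of all genes. The exact test called 2 of the 76 lower (4.19% of all genes) and DESeq2 4 (5.65%). *Mrps18c* was at 29, 25.7 and 26.5 CPM in WT and at 11.9, 11.9, 16.1 and 20.7 CPM in KO libraries, a log2 fold change of -0.83 (standard error 0.212, edgeR adjusted p = 0.0912, range over the alternatives 0.0109 to 0.328). *Mrps34* had -0.72 (standard error 0.246, edgeR adjusted p = 0.148). The median deviation of these genes from their WT mean was -0.40, -0.36, -0.38 and 0.02 in KO replicates 1 to 4, so KO replicate 4 stood near the WT libraries here as well.

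Of 6 common reference genes, *Actb* had a log2 fold change of 0.59 (standard error 0.202, edgeR adjusted p = 0.148, range over the alternatives 0.0491 to 0.402) and *Ppia* one of -0.54 (standard error 0.207, edgeR adjusted p = 0.181). The milk protein genes were lower without overlap in all 7 cases, against 9.55% of all genes. Their median was -1.10 (-0.75 with library size only), led by *Csn1s2b* and *Csn1s1* at -1.45 each (edgeR adjusted p = 0.0794 and 0.0868, ranges over the alternatives 0.000939 to 0.307 and 0.000319 to 0.333). The exact test and DESeq2 each called 7 of these 7 genes lower, against 4.19% and 5.65% of all genes. By qRT-PCR, at L1 among other stages, the study found several milk protein genes unaffected by loss of *Tardbp*. All 10 lymphocyte markers were positive, with a median of 2.56, and 5 of them were higher without overlap, against 9.07% of all genes. *Ms4a1*, whose groups overlapped, was at 0.28, 0.0555 and 0.332 CPM in WT and at 17.8, 0.172, 25.2 and 5.1 CPM in KO libraries. The exact test and DESeq2 each called 9 of the 10 higher, against 3.7% and 5.44% of all genes, and the edgeR adjusted p of *Cd79a* ranged from 2.15e-05 to 0.299 over the alternatives. Of 5 luminal markers 3 were negative (*Wap* -1.10, *Csn2* -1.07, *Elf5* -0.58), lower without overlap in each case, and the keratins *Krt8* (0.55, higher without overlap) and *Krt18* (0.65, overlapping) were positive. *Elf5* and the keratins were named after their values were seen. DESeq2 called 2 of the 5 lower and 1 higher, and the exact test 2 lower and 0 higher. The medians were -0.58 for these luminal markers, -0.43 for 4 myoepithelial markers, 0.65 for 4 myeloid markers, 0.32 for 5 adipocyte markers, -0.05 for 4 fibroblast markers, -0.03 for 4 endothelial markers and 0.60 for 3 measured skeletal muscle markers. No gene of these lists passed an adjusted p of 0.05 in edgeR's quasi-likelihood test.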

How the data were processed

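Total RNA of mammary glands at L1 was made into Illumina TruSeq libraries, and paired-end reads were sequenced. The authors mapped them with STAR (2.5.2a in the submitters' processing notes) to NCBIM37 (mm9) and deposited raw counts per gene from featureCounts 1.4.6-p5 on GENCODE vM1 exons. The deposited length column gives other values, the summed exon bases. The command line sets no option for strand, pairs or multimapping reads. Reads of both strands and both mates were therefore counted singly, and reads on several places or genes were left out. It names 1 more library, which was not analysed here.

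Groups were the genotypes that the labels give. Whether the mice shared litters is not given in the sources used here, so p-values measure the spread between these libraries. A gene was kept if 4 or more of the 7 libraries had 5 counts or more of it. The study removed ribosomal and mitochondrial genes, which were kept here because the members are ribosomal. The comparison of WT with KO ran in R 4.3.3 with edgeR 4.0.16 (TMM, quasi-likelihood test, common dispersion 0.0915, prior degrees of freedom 3.89), and 95% intervals used its standard errors. Benjamini-Hochberg adjustment ran over all genes tested. Exact permutation tests were 2-sided on log2(CPM + 1) over 35 splits. Alternatives were other scalings, filters and tests (DESeq2 1.42.0), a replicate block, each library left out, lane 4 only and, chosen after seeing the data, removal of trends with transcript length and GC content (splines with 5 degrees of freedom). Coding length, copies, snoRNA genes and UG runs came from the annotation and genome of the same build, and transcripts were chosen by consensus coding sequence, then by lowest number. TOP tracts came from RefSeq promoters (GRCm38.p6), in which 58 members matched by symbol.

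Given in full were the 5 members with the highest and the 5 with the lowest log2 fold change at 10 CPM or more, the 3 highest and 3 lowest per kb, paralog pairs, *Rps18*, *Rps6*, *Rplp0* to *Rplp2*, *Rpsa*, *Rpl13a*, members called (up to 10), *Tardbp* and the 2 genes of each list with the largest absolute log2 fold change. Values of some genes that this rule names are not reported here by themselves. The members and gene lists were chosen with earlier results of these data known. Tables and figures were made with Python 3.11.15, pandas 2.3.3, scipy 1.17.1 and matplotlib 3.10.9.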

Additional observations from a re-analysis of the deposited data

Results flagged for a closer look

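One of the 83 values examined within the libraries labelled KO stood apart from the other 3. *Rpl23a*, a large subunit protein at the exit of the nascent chain tunnel, was at 103, 104 and 104 CPM in KO replicates 1, 2 and 4 and at 94.2 CPM in KO replicate 3, which is also the lowest library for most members. Its WT levels were 129, 116 and 126 CPM, so that the genotypes did not overlap (log2 fold change -0.29, standard error 0.122, edgeR adjusted p = 0.219, exact permutation p = 0.0286, the smallest possible). About 1 in 20 groups is singled out in this way by chance, and 62.3% of the exon bases of *Rpl23a* are shared with other genes.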

How the results depend on the processing

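No member passed the study's limits under any alternative run. At an adjusted p under 0.05, 1 member passed with edgeR's exact test, 1 with the likelihood ratio test and 2 with DESeq2, instead of 0, and 0 passed when any one library was left out. Correlations of deviations were 0.35, 0.09 and -0.06 for same-numbered libraries and -0.39 to 0.25 for the others. So few values cannot decide whether the replicate numbers pair the libraries. With a replicate block 1 member passed (*Rps27l*), the median log2 fold change was -0.28, and no other named member's call moved. The median log2 fold change of the members, -0.20, became 0.14 with library size only and lay between -0.30 and -0.13 with each library left out. Less the median of all genes, it lay between -0.33 and -0.18 there. The count of members lower without overlap, 14, became 0 with library size only, where 23 were higher, 34 (43%) in lane 4 only, against 32.2% of all genes there, and 14 to 56 with each library left out, against 10.5 to 17.6% of all genes. The difference in the share of counts (KO less WT), 0.531 percentage points, became -0.187 without milk protein genes, -0.182 without milk protein and mitochondrial genes, and 0.277 to 0.657 with each library left out. The median WT level became 632 CPM per kb with the longest annotated transcript as length and 730 with the transcript used for coding length. Depth did not limit members of 10 CPM or more, while *Rpl39l* had 8 to 22 counts.

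With library size only, signs turned for *Rplp1* (0.17), *Rps27* (0.08), *Rps12* (0.04), *Rps15a* (0.20), *Rpl24* (0.29), *Rpl3* (0.21), *Rpl10* (0.29), *Rps4x* (0.28), *Rpl7* (0.25), *Rpl22* (0.21), *Rps18* (0.08), *Rps6* (0.28), *Rplp2* (0.04), *Rpsa* (0.31), *Rpl13a* (0.11), *Lum* (0.27) and *Kdr* (0.04). The median of all genes was 0.40 with this scaling and 0.05 with TMM. With DESeq2's size factors they turned for *Rpl5* (-0.003), *Rplp0* (-0.01) and *Tardbp* (-0.0023), and with its Wald test likewise (-0.003, -0.01 and -0.0023). With the 10 most counted genes left out they turned for the same 3 genes (-0.02 each). With the replicate block they turned for *Rpl13* (-0.04), *Rpl5* (-0.04), *Rplp0* (-0.06), *Tardbp* (-0.04), *Fau* (-0.06) and *Lum* (0.05). In lane 4 only they turned for *Rps9* (-0.14), *Rpl13* (-0.03), *Rpl5* (-0.15), *Rplp0* (-0.12), *Fau* (-0.06), *Acta1* (-0.05) and *Ckm* (0.02). With the trend in transcript length removed they turned for *Rpl24* (0.05), *Rpl10* (0.03), *Rps4x* (0.0015) and *Rps6* (0.01), and with GC removed as well for *Rpl24* (0.10), *Rpl10* (0.06), *Rps4x* (0.04) and *Rpl7* (0.00051). Leaving out one library at a time, values spanned 0 for *Rps9* (-0.05 to 0.29), *Rpl13* (-0.05 to 0.12), *Rpl5* (-0.07 to 0.11), *Rplp0* (-0.09 to 0.08), *Rpl24* (-0.16 to 0.03), *Rpl10* (-0.13 to 0.04), *Rpsa* (-0.12 to 0.04), *Tardbp* (-0.09 to 0.16), *Fau* (-0.09 to 0.16), *Dcn* (-0.03 to 0.62) and *Lum* (-0.59 to 0.10). The cause of these turns was not tested.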
